A study of Homo sapiens with 6 samples.

Results

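Metals such as zinc, copper, iron, manganese and magnesium cross membranes through dedicated carriers, and the genes described here encode those of the families SLC11, SLC30, SLC31, SLC39, SLC40 and SLC41, together with the metallothioneins MT1 and MT2A. They were taken from the deposited expression tables by a rule on gene symbols, which matched 42 of 23245 gene rows. The cells were L3.6pl, a long-established line of human pancreatic cancer, which the sample titles shorten to L3.6. The 3 parental libraries are labelled wild type for ARID1A, and the 3 ARID1A ko libraries are labelled ARID1A-deficient. Both groups were grown in the same medium with fetal calf serum and received no drug. The sources used here do not say how ARID1A was disrupted or whether the ARID1A-deficient cells are 1 clone, so effects of ARID1A loss and other differences between the cells cannot be told apart. The labels mention triplicate samples without saying that they were separate cultures, so p-values measure only the spread between these samples.

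As background, SLC39 proteins (ZIP transporters) move zinc, and in some cases iron or manganese, into the cytosol, and SLC30 proteins (ZnT transporters) move zinc out of it, across the plasma membrane or into vesicles and the Golgi. Metallothioneins are small cysteine-rich proteins that bind zinc and copper in the cytosol. The zinc-sensing transcription factor MTF1 binds metal-response elements in the promoters of the metallothionein genes and of SLC30A1, the zinc exporter of the plasma membrane. Cells given more zinc generally raise both.

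Values are FPKM, fragments scaled to transcript length and library. Tests were made with limma on log2(FPKM + 1) over all genes whose mean reached 0.5 FPKM, with Benjamini-Hochberg adjustment over all genes tested and a threshold of 0.05. Folds are ratios of group means in FPKM, and log2 fold changes are on the log2(FPKM + 1) scale, which understates changes of low genes. FPKM sums per library ran from 576084 to 792187, and estimated depth relative to parental library 1 was 0.732 to 1.27. The estimate was the most common ratio, in log2 steps of 0.05, among rows above 0 and below 0.2 FPKM in all libraries. ARID1A itself measured 11.8, 6.76 and 9.42 FPKM in parental libraries against 3.55, 3.28 and 3.61 FPKM in ARID1A ko libraries (log2 fold change -1.18, SE 0.18, adjusted p = 0.00610). The 41 tested genes centred on ARID1A had a median log2 fold change of -0.27, and the part of this shift in its fall was not tested. All 6 epithelial and ductal markers were measurable, with sums of 6286 to 9831 FPKM in parental and 4527 to 5723 FPKM in ARID1A ko libraries. None of those markers passed the threshold, but for EPCAM, CDH1, KRT7, KRT8 and KRT19 every ARID1A ko library was below every parental library. Their falls ran from 1.29-fold for EPCAM to 1.73-fold for KRT19, with limma adjusted p from 0.0828 (KRT8) to 0.327 (KRT7). The groups overlapped for KRT18. Fibroblast markers summed to 0.0176 to 0.137 FPKM in parental and 0.214 to 0.303 FPKM in ARID1A ko libraries, with DCN and LUM at 0 throughout. Most of the ARID1A ko sums came from PDGFRA, at 0.0101 to 0.0788 FPKM in parental and 0.197 to 0.258 FPKM in ARID1A ko libraries. COL6A3 went the other way, with at most 0.0433 FPKM in parental and 0 in all ARID1A ko libraries. Of the endothelial markers only PECAM1, and of the leukocyte markers only CD68, passed the threshold, both lower in ARID1A ko libraries. The endothelial list summed to 8.43 to 10.0 FPKM in parental and 8.64 to 9.23 FPKM in ARID1A ko libraries, the leukocyte list to 8.51 to 9.87 and 5.95 to 7.65 FPKM, and the acinar list to 0.959 to 1.09 and 1.67 to 3.19 FPKM. The acinar sum came mostly from PRSS1 in every library. PTPRC, the pan-leukocyte marker, reached 0.0442 FPKM in 1 library and 0 in the others, and none of the 5 acinar markers passed. The part of any such change in the results below was not tested.

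Of the 42 genes, 26 reached the mean needed for testing, and 8 of these passed the threshold, or 30.8%, against 15.9% of all 12826 genes tested. The genes were chosen with earlier results of these data known, so shares above those of all genes are no test of the families. MT2A, MT1X and SLC40A1 rose in ARID1A ko cells, 3 genes or 11.5% of those tested, where 7.82% of all genes rose. SLC30A1, SLC30A3, SLC39A4, SLC39A11 and SLC31A1 fell, 5 genes or 19.2%, where 8.11% of all genes fell. The libraries of the groups did not overlap for 13 of the 26 genes, or 50.0%, against 35.3% of all genes. Without overlap, 4 of the 26 were higher and 9 lower, where 16.7% of all genes were higher and 18.6% lower. The median log2 fold change of the 26 genes was -0.15, beside -0.01 for all genes tested. By family, 2 of 3 tested metallothioneins rose and none fell, 2 of 6 tested SLC30 genes and 2 of 10 tested SLC39 genes fell and none rose, and of the 7 other tested transporters 1 rose and 1 fell. The number of genes called depended on single libraries. Without parental library 2 it was 5 higher and 10 lower, and without parental library 3 or ARID1A ko library 3 it was 1 higher and 1 lower, MT2A and SLC30A1. Without ARID1A ko library 1 it was 2 higher and 3 lower, without ARID1A ko library 2 it was 1 and 2, and without parental library 1 it was 2 and 3. The number called over all genes moved the same way, from 2043 to 4113 without parental library 2, 1033 without parental library 3 and 960 without ARID1A ko library 3.

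**Figure D1:**
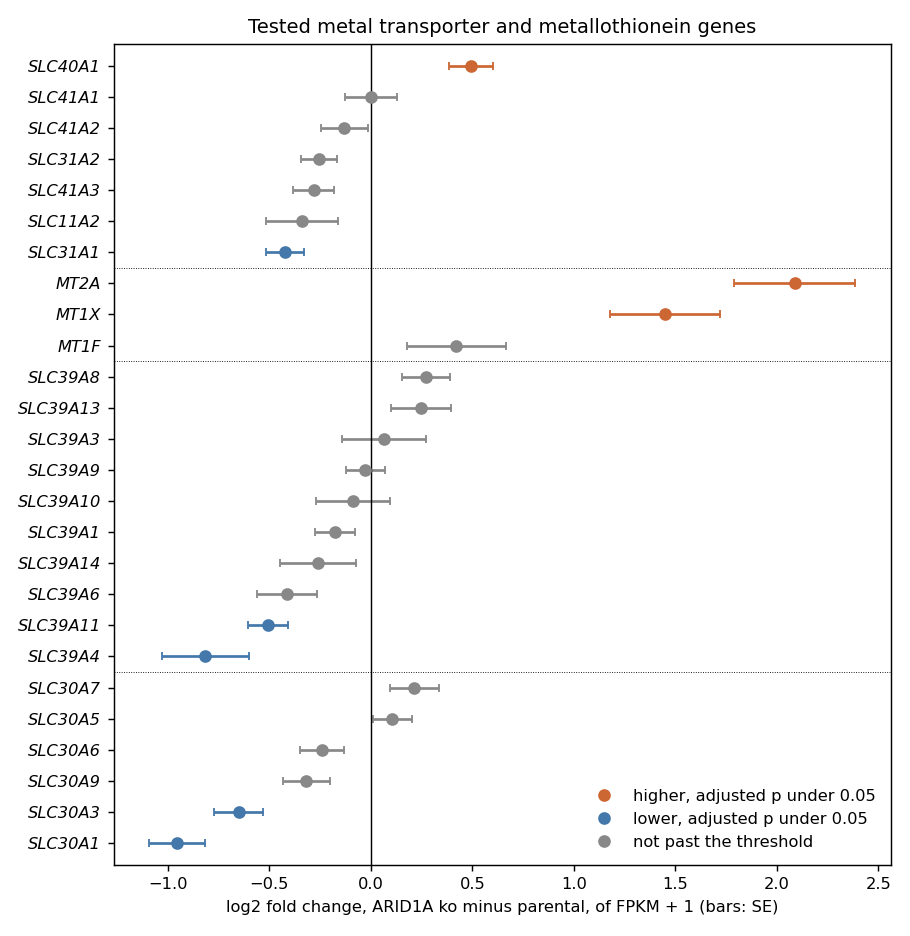
Log2 fold change of FPKM + 1, ARID1A ko minus parental, on the horizontal axis for each of the 26 tested genes, grouped by family, with bars for the SE and colour for the limma call. MT2A at 2.09 and MT1X at 1.45 lie to the right of all other genes, and SLC30A1 at -0.96 lies farthest to the left.

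The promoters of the 2 metallothionein genes that rose and of SLC30A1, which fell, are shown because textbook knowledge makes all of them targets of MTF1. The sequences are the 250 bases upstream of the annotated start, 5′ to 3′ on the strand of the gene, from the RefSeq promoter table of build GRCh38.p14, while the expression files used GRCh37. Capitals mark matches on either strand to the metal-response element core, searched as TGCACNC and as TGCGCNC. Matches in these 3 windows do not overlap one another. MT2A lies at chr16:56608334-56608583 on the plus strand, MT1X at chr16:56682220-56682469 on the plus strand and SLC30A1 at chr1:211579162-211579411 on the minus strand.
MT2A: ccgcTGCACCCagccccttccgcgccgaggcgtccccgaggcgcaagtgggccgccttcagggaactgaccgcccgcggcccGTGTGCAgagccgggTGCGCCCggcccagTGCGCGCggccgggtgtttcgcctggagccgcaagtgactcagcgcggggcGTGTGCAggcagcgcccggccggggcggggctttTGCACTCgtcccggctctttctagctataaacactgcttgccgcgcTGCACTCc
MT1X: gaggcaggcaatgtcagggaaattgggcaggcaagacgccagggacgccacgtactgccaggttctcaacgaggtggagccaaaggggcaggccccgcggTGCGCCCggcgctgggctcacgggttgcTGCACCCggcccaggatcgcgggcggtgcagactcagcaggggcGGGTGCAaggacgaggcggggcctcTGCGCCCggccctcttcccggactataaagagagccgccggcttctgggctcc
SLC30A1: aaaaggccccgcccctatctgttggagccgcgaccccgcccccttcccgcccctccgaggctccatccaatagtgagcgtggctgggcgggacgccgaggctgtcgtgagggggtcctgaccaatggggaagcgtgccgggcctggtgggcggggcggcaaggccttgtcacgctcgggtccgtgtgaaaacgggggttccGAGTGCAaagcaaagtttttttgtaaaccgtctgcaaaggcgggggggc

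The window of MT2A holds 7 core matches, a number reached by 0.0313% of 35116 RefSeq promoter windows of the same length. MT1X holds 4, a number reached by 0.370% of windows. SLC30A1 holds 1, and 24.8% of windows hold 1 or more. The table had an entry for 32 of the 42 genes. Of its 28 transporter entries, 8 held at least 1 match, among them SLC30A3 and SLC40A1 with 2 each. All 4 metallothionein entries held between 3 and 8 matches, including MT1H and MT1B, whose rows were listed at 0 in every library. A match describes letters in the window and does not show a bound site.

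**Figure D2:**
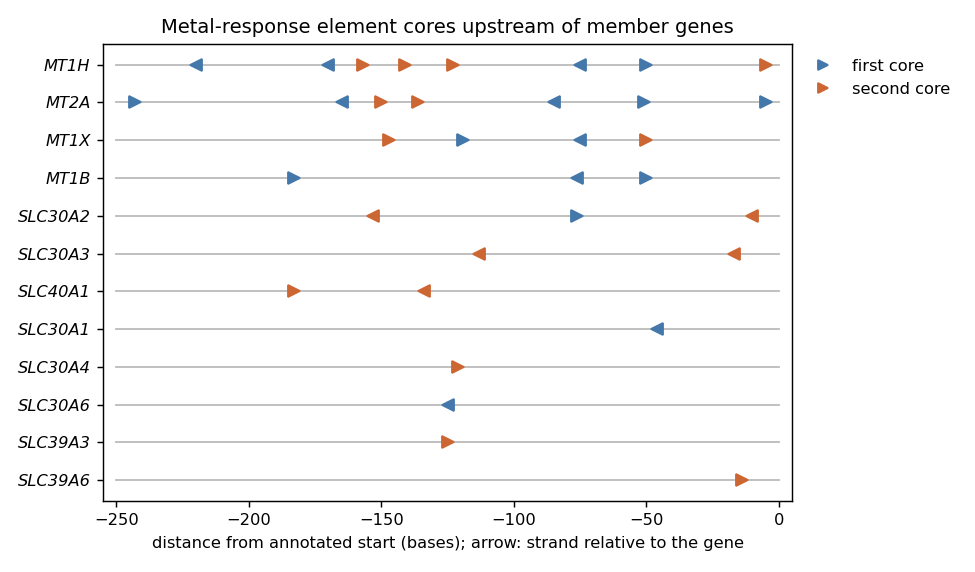
Position of each core match upstream of the annotated start for the 12 genes with at least 1 match, in bases, with arrows for the strand, blue for TGCACNC and orange for TGCGCNC. MT1H and MT2A hold 8 and 7 matches spread over the window, while most transporter genes hold 1 or 2.

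MT2A, the most abundant metallothionein row, measured 95.1, 194 and 112 FPKM in parental libraries against 420.2, 640.1 and 602 FPKM in ARID1A ko libraries. Every ARID1A ko library was above every parental library, and parental library 2 was the highest of its group. The means of 134 ± 53.0 and 554 ± 117 FPKM (SD, n = 3 each) give a 4.14-fold rise (log2 fold change 2.09, SE 0.30, adjusted p = 0.00473). MT2A passed the threshold whichever library was left out (adjusted p up to 0.0321), and its log2 fold change was 2.39 without parental library 2.

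MT1X measured 39.2, 65.0 and 34.6 FPKM in parental libraries against 96.4, 157 and 124 FPKM in ARID1A ko libraries. The groups did not overlap, and parental library 2 was again the highest of its group. The rise was 2.72-fold, from 46.3 ± 16.4 to 126 ± 30.4 FPKM (SD, n = 3 each), with a log2 fold change of 1.45 (SE 0.27, adjusted p = 0.0137). The call ended without parental library 3 (adjusted p = 0.0546), ARID1A ko library 2 (adjusted p = 0.0519) or ARID1A ko library 3 (adjusted p = 0.0644).

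MT1F measured 5.48, 8.05 and 3.49 FPKM against 7.31, 8.65 and 6.88 FPKM. Parental library 2 lay within the range of the ARID1A ko libraries, and the difference did not pass (log2 fold change 0.42, adjusted p = 0.310). Without parental library 2 it did (log2 fold change 0.67, adjusted p = 0.0148). Genes around the metallothionein cluster on chromosome 16 did not share the change of MT2A and MT1X: the median log2 fold change of the 41 tested genes centred on MT2A was 0.04.

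Summed over the rows above 0, metallothionein transcripts measured 140.5, 267 and 150.1 FPKM in parental libraries against 524, 806 and 732 FPKM in ARID1A ko libraries. MT2A made up 67.7% to 74.6% of that sum in parental and 79.4% to 82.2% in ARID1A ko libraries. The ratio of MT2A to MT1X was 2.42, 2.99 and 3.24 in parental libraries and 4.36, 4.08 and 4.87 in ARID1A ko libraries. In all 3 measures the groups did not overlap, and the FPKM of MT2A relative to MT1X were higher in ARID1A ko than in parental libraries. The uncertain split between copies, described below, also bears on this ratio and on the share of MT2A. In bulk samples, a change in the share of cells with a transcript and a change in its amount per cell cannot be told apart.

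Among the other metallothionein rows, MT1A, MT1B, MT1E, MT1H, MT1L and MT1M were listed at 0 in all 6 libraries, and MT1G at 0.675 FPKM in parental library 1 and 0 in the others. These genes resemble one another closely. In GENCODE 29 transcripts, the longest run of bases shared with another of the 10 genes was 92 for MT1G and MT1H, 85 for MT1E, 64 for MT2A and MT1F, and 47 for MT1X. The sources used here do not say how fragments matching several copies were counted. The split between copies is therefore uncertain, and a row at 0 may reflect an estimate that failed. A further 5 metallothionein rows, pseudogenes included, held at most 0.216 FPKM, with 4 of them at 0 throughout.

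**Figure D3:**
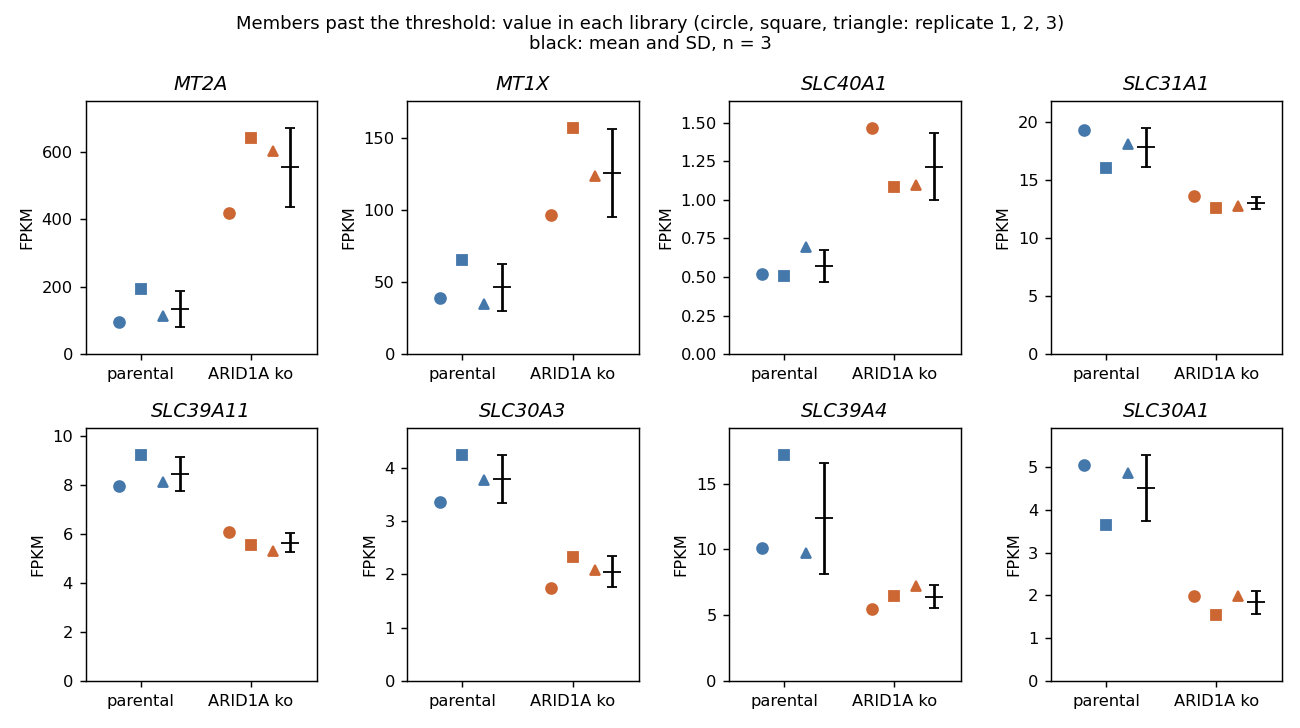
FPKM in each library for the 8 genes past the threshold, with separate vertical axes that start at 0, parental in blue, ARID1A ko in orange, and the mean and SD (n = 3) in black. For every gene shown the groups do not overlap, and parental library 2, the square, is the highest parental library for MT2A, MT1X, SLC39A4, SLC39A11 and SLC30A3.

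SLC30A1 encodes ZnT1, which exports zinc across the plasma membrane. It measured 5.05, 3.64 and 4.87 FPKM in parental libraries against 1.98, 1.53 and 1.99 FPKM in ARID1A ko libraries. Every ARID1A ko library was below every parental library, the opposite order to MT2A and MT1X. The fall was 2.46-fold, from 4.52 ± 0.769 to 1.84 ± 0.261 FPKM (SD, n = 3 each), with a log2 fold change of -0.96 (SE 0.14, adjusted p = 0.00487). SLC30A1 passed the threshold whichever library was left out (adjusted p up to 0.0293), and the 41 tested genes around it had a median log2 fold change of -0.02. MTF1, the factor that senses zinc, measured 2.99, 1.93 and 2.43 FPKM against 2.18, 1.77 and 1.999 FPKM, with overlapping groups and no call (log2 fold change -0.20, adjusted p = 0.389).

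SLC30A3 encodes ZnT3, best known for loading zinc into synaptic vesicles. It measured 3.36, 4.25 and 3.76 FPKM in parental libraries against 1.74, 2.33 and 2.09 FPKM in ARID1A ko libraries, again without overlap. The fall was 1.85-fold (log2 fold change -0.65, SE 0.12, adjusted p = 0.0126), and it was no longer called without parental library 3 (adjusted p = 0.0580) or ARID1A ko library 3 (adjusted p = 0.0602). Its neighbours on chromosome 2 were also lower, with a median log2 fold change of -0.32 over 41 tested genes, and the part of this shift in the fall of SLC30A3 was not tested.

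The other 4 tested SLC30 genes did not pass. SLC30A5, the ZnT5 subunit of a Golgi transporter, measured 21.9, 18.5 and 18.8 FPKM against 21.7, 19.8 and 22.3 FPKM, with overlapping groups (adjusted p = 0.538). Its partner SLC30A6 measured 10.1, 8.01 and 10.1 FPKM against 7.94, 7.47 and 7.87 FPKM. The SLC30A6 groups did not overlap, but only narrowly, with a log2 fold change of -0.24 (adjusted p = 0.195) where the 41 tested genes around it on chromosome 2 had a median of -0.33. SLC30A9 measured 23.6, 18.5 and 23.1 FPKM against 18.8, 16.3 and 16.5 FPKM, with parental library 2 inside the range of the other group (adjusted p = 0.123). SLC30A7, the ZnT7 zinc transporter of the Golgi, ranged from 2.89 to 4.396 FPKM with overlapping groups (adjusted p = 0.294). Of the rows too low to test, SLC30A4 lay between 0.278 and 0.610 FPKM, SLC30A2 and SLC30A10 reached 0.0631 FPKM at most, and SLC30A8, the ZnT8 of pancreatic beta cells, was listed at 0 in every library.

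Among the ZIP importers, SLC39A4 and SLC39A11 fell and 8 others did not pass. SLC39A4 encodes ZIP4, a zinc importer of the cell surface that is known for its role in dietary zinc uptake and is often raised in pancreatic cancer. It measured 10.1, 17.2 and 9.75 FPKM in parental libraries against 5.49, 6.44 and 7.23 FPKM in ARID1A ko libraries. The groups did not overlap, and parental library 2 stood well above the other parental libraries. The fall was 1.93-fold, from 12.3 ± 4.20 to 6.39 ± 0.872 FPKM (SD, n = 3 each), close to the threshold (log2 fold change -0.82, SE 0.22, adjusted p = 0.0457). The call ended without any single library except parental library 2 (highest adjusted p = 0.139, without ARID1A ko library 1). Without parental library 2 the log2 fold change was -0.57 (adjusted p = 0.00751). It also ended when low genes were kept (adjusted p = 0.0620), a minimum mean of 3 FPKM (adjusted p = 0.0517) and quantile normalization (adjusted p = 0.0582).

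SLC39A11, or ZIP11, measured 7.99, 9.25 and 8.15 FPKM in parental libraries against 6.08, 5.57 and 5.30 FPKM in ARID1A ko libraries. The groups did not overlap, and the fall was 1.497-fold (log2 fold change -0.51, SE 0.10, adjusted p = 0.0149). The call ended without parental library 3 (adjusted p = 0.0610) and without ARID1A ko library 2 or 3 (adjusted p = 0.0684 and 0.0795).

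SLC39A1, or ZIP1, a zinc importer found in most cell types, was the most abundant transporter row at 78.9, 88.3 and 83.2 FPKM in parental against 70.1, 75.4 and 75.8 FPKM in ARID1A ko libraries. The groups did not overlap, but the difference was small (log2 fold change -0.18, adjusted p = 0.284). SLC39A3, or ZIP3, measured 42.9, 72.3 and 43.4 FPKM against 49.4, 55.2 and 56.7 FPKM. Parental library 2 was the highest of all libraries and the other parental libraries were the lowest, so the means of 52.9 ± 16.8 and 53.7 ± 3.85 FPKM (SD, n = 3 each) say little about a difference, and without parental library 2 SLC39A3 passed as higher (adjusted p = 0.0397). SLC39A14, or ZIP14, a carrier of zinc, iron and manganese, measured 40.9, 25.8 and 36.1 FPKM against 32.9, 25.1 and 26.4 FPKM, with overlapping groups (adjusted p = 0.413).

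The other ZIP rows that were tested spanned 2.70 to 21.6 FPKM, and none passed. SLC39A6, a zinc importer also known as LIV-1, measured 16.7 ± 2.90 and 12.2 ± 1.61 FPKM (SD, n = 3 each; adjusted p = 0.117). SLC39A8, a carrier of zinc and manganese that is related to ZIP14, measured 4.21, 4.37 and 4.07 FPKM against 5.98, 4.43 and 5.59 FPKM. Its groups did not overlap, but ARID1A ko library 2 lay just above the parental range (adjusted p = 0.180). SLC39A9, SLC39A10 and SLC39A13 had overlapping groups and adjusted p-values of 0.884, 0.799 and 0.318.

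SLC39A7, which encodes a zinc transporter of the endoplasmic reticulum, was listed at 0 in all 6 libraries, and so were 38 of the 41 gene rows centred on it along chromosome 6, where 23.3% of all rows were at 0 throughout. The row therefore gives no measure of its expression. SLC39A12 was also at 0 throughout, with 9 of 41 rows around it at 0, and SLC39A2 and SLC39A5 reached at most 0.216 and 0.0743 FPKM.

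SLC31A1 encodes CTR1, the main copper importer of the plasma membrane. It measured 19.4, 16.1 and 18.1 FPKM in parental libraries against 13.6, 12.6 and 12.8 FPKM in ARID1A ko libraries. The groups did not overlap, and the fall was 1.37-fold (log2 fold change -0.42, SE 0.09, adjusted p = 0.0239). Dropping any single library except parental library 2 ended the call (adjusted p of 0.0584 to 0.108). SLC31A2, the related CTR2, measured 4.88, 4.90 and 5.18 FPKM against 4.22, 4.001 and 3.82 FPKM, without overlap, and did not pass (log2 fold change -0.26, adjusted p = 0.1004). Both genes lie on chromosome 9, and the 41 tested genes around each had a median log2 fold change of -0.15.

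Of the other copper genes, 13 of 14 rows were tested. The limma test called 0 of them, where it called 15.9% of all genes, and their median log2 fold change was -0.02. For 2 of them the unadjusted limma p was under 0.05, and the share of all genes under that level was not computed. That share cannot be below the 15.9% that passed after adjustment. The copper pumps ATP7A and ATP7B, which load copper enzymes and export copper, measured 1.73, 0.898 and 1.37 FPKM against 0.961, 0.716 and 0.843 FPKM, and 2.82, 1.68 and 2.51 FPKM against 1.46, 1.35 and 1.37 FPKM. ATP7B groups did not overlap (log2 fold change -0.46, adjusted p = 0.0755), while those of ATP7A did (adjusted p = 0.192). Both passed as lower without parental library 2 (3 copper genes lower and 2 higher in all). Leaving out that library also raised the number called over all genes from 2043 to 4113.

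SLC40A1 encodes ferroportin, the only known cellular iron exporter. It measured 0.519, 0.504 and 0.692 FPKM in parental libraries against 1.47, 1.08 and 1.09 FPKM in ARID1A ko libraries. The groups did not overlap, and the rise was 2.12-fold from a low level, 0.572 ± 0.104 to 1.21 ± 0.218 FPKM (SD, n = 3 each), with a log2 fold change of 0.49 (SE 0.11, adjusted p = 0.0233). The call ended without any single library except parental library 2 (adjusted p of 0.0559 to 0.0719), and with a pseudocount of 0.1 the log2 fold change was 0.97 (adjusted p = 0.0249). Tested neighbours on chromosome 2 had a median log2 fold change of 0.23, and the part of this shift was not tested.

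SLC11A2 encodes DMT1, an importer of ferrous iron. It measured 12.2, 7.45 and 10.1 FPKM against 8.04, 6.44 and 8.10 FPKM, with overlapping groups (adjusted p = 0.260). SLC11A1, the related transporter of phagocytes, lay between 0.123 and 0.550 FPKM and was too low to test. Of the magnesium transporters, SLC41A3 measured 34.9, 42.1 and 36.9 FPKM against 29.2, 30.996 and 32.9 FPKM, without overlap and without a call (log2 fold change -0.28, adjusted p = 0.114). SLC41A1, at 7.21 to 10.2 FPKM, and SLC41A2, at 0.467 to 0.902 FPKM, had overlapping groups (adjusted p = 0.998 and 0.519).

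Of the other genes of iron handling, 21 of 32 rows were tested, and 2 rose and 2 fell, or 9.52% each way, near the 7.82% and 8.11% of all genes, with a median log2 fold change of -0.08 beside -0.01 for all genes. LCN2, a secreted protein that binds iron carriers, fell 26.4-fold to 1.57, 1.59 and 0.928 FPKM from 29.8, 43.3 and 35.1 FPKM (adjusted p = 2.64e-05). CP, the ceruloplasmin ferroxidase that works with ferroportin, measured 7.49, 5.55 and 6.34 FPKM against 2.76, 2.17 and 2.53 FPKM, a 2.60-fold fall (adjusted p = 0.00203) without overlap. STEAP2, a metalloreductase of iron and copper, measured 1.23, 1.16 and 1.03 FPKM against 2.82, 2.85 and 3.82 FPKM, a 2.77-fold rise (adjusted p = 0.00295).

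ACO1, the cytosolic aconitase that doubles as an iron-regulatory protein, measured 8.34, 7.42 and 7.19 FPKM in parental libraries against 11.9, 11.1 and 11.1 FPKM in ARID1A ko libraries, a 1.49-fold rise (adjusted p = 0.00954), and its 41 neighbours had a median log2 fold change of 0.39. Its call ended without parental library 3 or ARID1A ko library 3 (highest adjusted p = 0.0567). The transferrin receptor TFRC measured 174, 118 and 157 FPKM against 159, 126 and 138 FPKM (adjusted p = 0.826). The ferritin heavy chain FTH1 measured 471, 829 and 482 FPKM against 712, 729 and 645 FPKM (adjusted p = 0.526). The light chain FTL measured 307, 507 and 376 FPKM against 311, 403 and 398 FPKM (adjusted p = 0.862), and the heme oxygenase HMOX1, which also answers to metals and oxidative stress, measured 4.20, 5.48 and 3.19 FPKM against 3.81, 4.01 and 3.26 FPKM (adjusted p = 0.609). The groups thus overlapped for these 4 genes, and iron in the cells was not measured. FTH1 passed as higher without parental library 2 (adjusted p = 0.0167), and the other 3 did not pass in any alternative tried.

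Of the other zinc, manganese and magnesium genes, 19 of 23 rows were tested and 1 passed, or 5.26% where 15.9% of all genes passed, with a median log2 fold change of -0.000151. In 7 of the tested genes the unadjusted limma p was under 0.05. The share of all genes under that level was not computed, but it cannot be below the 15.9% that passed after adjustment. The groups did not overlap for 8, or 42.1% against 35.3% of all genes. Without overlap, 1 of the 19 was higher and 7 lower, where 16.7% of all genes were higher and 18.6% lower. NIPAL3, of a family of magnesium transporters, fell 1.64-fold, from 6.55, 5.08 and 6.42 FPKM to 3.85, 3.72 and 3.46 FPKM (adjusted p = 0.0168), and its neighbours had a median log2 fold change of -0.27. It was no longer called without parental library 3, or when any of the ARID1A ko libraries was dropped (highest adjusted p = 0.0853).

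**Figure D4:**
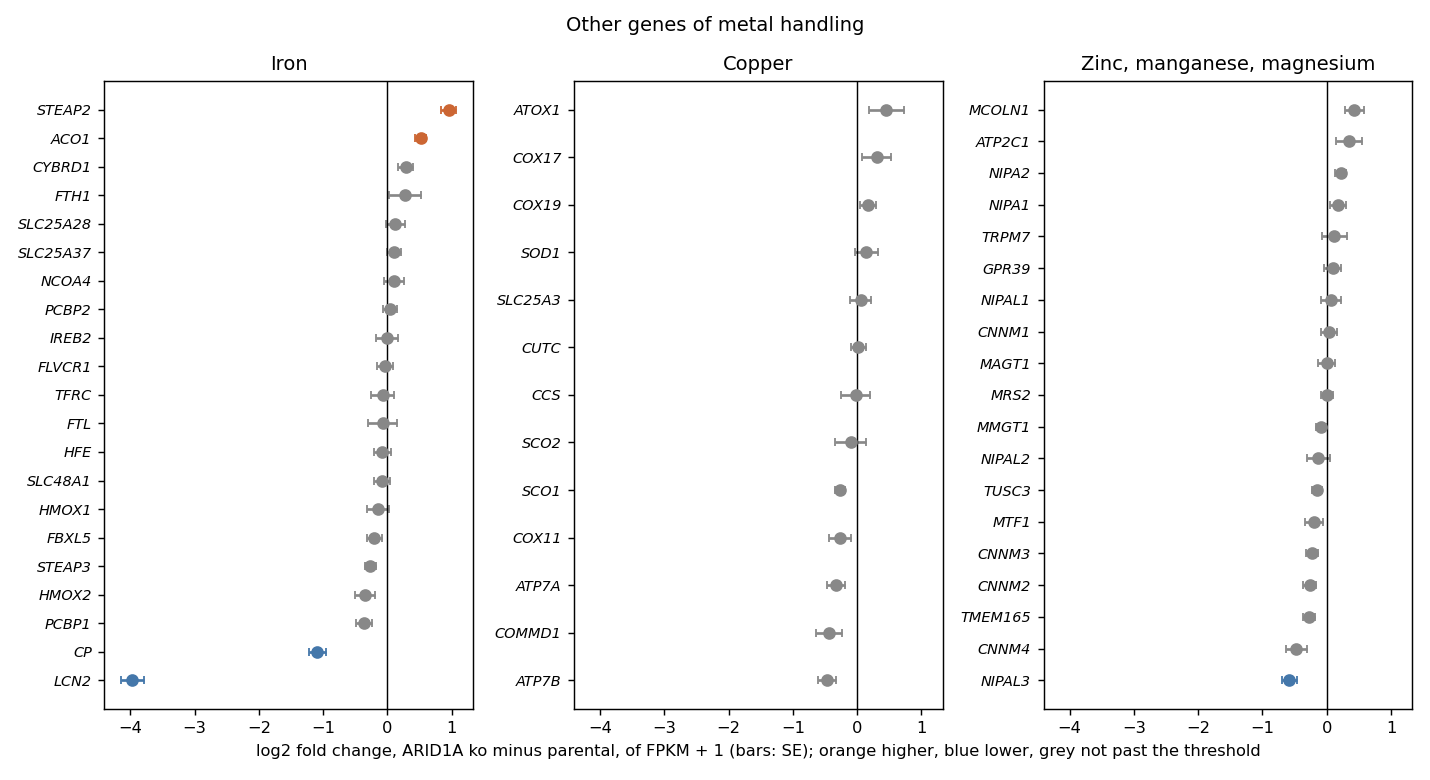
Log2 fold change of FPKM + 1, ARID1A ko minus parental, with SE bars for the tested genes of iron, copper, and zinc, manganese or magnesium handling outside the transporter families and metallothioneins. LCN2 at -3.97 lies far from the rest, and 5 of the genes shown pass the threshold, none of them among the copper genes.

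Parental library 2 stood apart from the other parental libraries in a way that went with transcript length among the 26 tested genes, with exceptions. Over all genes this relation was weaker but had the same direction. Of the 26 tested genes, it was the highest parental library for 11 and the lowest for 14. Its deviation from the mean of parental libraries 1 and 3, on the log2(FPKM + 1) scale, was 0.91 for MT2A, 0.80 for MT1X and 0.75 for MT1F, which are short, and -0.31 for SLC30A7, the longest. SLC31A2, also short, deviated by -0.03, and the longer SLC39A4 and SLC39A3 by 0.74 and 0.73. Across the 26 genes, which share the same 3 libraries and are not independent, Pearson's r between this deviation and the log2 length of the longest transcript was -0.789, and it was -0.165 across 12314 tested genes with a length. Among those 12314 genes the median deviation was 0.39 for the 2520 with a longest transcript under 2000 bases and -0.06 for the others. The slope of log2 values on log2 length was -0.401 in parental library 2, -0.302 and -0.329 in parental libraries 1 and 3, and -0.375 to -0.353 in ARID1A ko libraries.

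With each library's slope as a covariate, MT2A kept a log2 fold change of 1.90 (adjusted p = 9.75e-05), that of MT1X was 1.29 (adjusted p = 0.00591) and that of SLC30A1 was -0.88 (adjusted p = 0.000280). With this covariate 4 of the genes were called higher and 9 lower, while the number called over all genes went from 2043 to 4143.

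**Figure D5:**
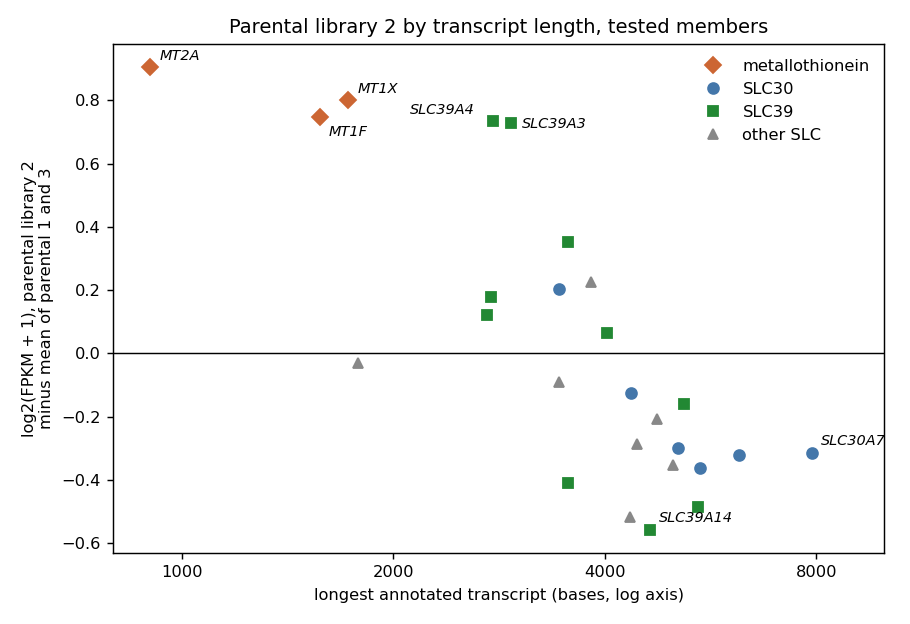
Difference in log2(FPKM + 1) between parental library 2 and the mean of parental libraries 1 and 3 (vertical axis) against the longest annotated transcript in bases (log horizontal axis) for the 26 tested genes, by family. The 3 metallothioneins, SLC39A4 and SLC39A3 lie above 0.7, and the genes with the longest transcripts lie below 0.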

How the data were processed

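Poly(A) RNA libraries of 3 parental and 3 ARID1A-deficient L3.6pl samples were compared, grouped by sample title. FPKM values were deposited by the authors, 1 table per sample. The tools were TopHat2 2.1.1, Cuffdiff 2.2.1.5 and Cuffnorm 2.2.1.2 with build GRCh37, per the submitters' processing notes. Annotation and scaling options were not given in these sources. Of 23273 rows, 28 with symbols turned into dates were left out. Sequencing depth in fragments is unknown, so precision rests on the spread between 3 libraries.

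limma 3.58.1 (R 4.3.3, trend and robust moderation) was run on log2(FPKM + 1) for 12826 genes whose mean reached 0.5 FPKM and checked on simulated data. P-values are two-sided. Alternatives were a pseudocount of 0.1, no filter, a minimum mean of 3 FPKM, quantile normalization, a replicate block, a length covariate (lengths from GENCODE 29) and leaving out each library. The members and lists were chosen with earlier results of these data known. Genes named are all members, with values per library for those called and the 3 highest of each family, called genes of the other metal lists, and MTF1, TFRC, FTH1, FTL, ATP7A, ATP7B and HMOX1. Gene order came from a RefSeq table of GRCh38. The main fit did not pair samples by replicate number. Sample titles do not say whether same-numbered samples were handled together.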

Additional observations from a re-analysis of the deposited data

How the results depend on the processing

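MT2A, SLC30A1 and ARID1A kept their direction and call in all 12 alternatives, and MT1X its direction in all and its call in 9. The ARID1A log2 fold change ranged from -1.37 to -1.01 over left-out libraries. The replicate block used the numbers of the titles, and whether same-numbered libraries share a batch is not known. Deviations from the group means correlated at 0.219, 0.217 and -0.0131 for same-numbered libraries and at -0.267 to 0.0825 for the other pairs. Parental library 3 did not correlate best with its own number. With the block 4049 of all genes were called, against 2043, with 5 members higher and 9 lower, 5 iron genes lower, 1 copper gene higher and 5 lower, and 2 zinc, manganese or magnesium genes higher and 3 lower. With the length covariate, 4143 of all genes were called, with 9 members lower, 5 iron genes lower, 3 copper genes lower, and 3 zinc, manganese or magnesium genes higher and 4 lower. With a minimum mean of 3 FPKM, 1462 of all genes were called. Under that minimum 3 members were lower and 1 iron gene higher, since SLC30A3 and STEAP2 lie below it and SLC39A4 missed the threshold (adjusted p = 0.0517). Without the filter, 2309 of all genes were called, with 1 zinc, manganese or magnesium gene higher and 2 lower. Quantile normalization gave 2497 calls over all genes, with 2 zinc, manganese or magnesium genes and 1 copper gene lower. The cause of these changes was not tested.

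Leaving out 1 library gave 960 to 4113 calls over all genes, 1 to 5 members higher and 1 to 10 lower, 1 to 3 iron genes higher and 2 lower, 0 to 2 copper genes higher and 0 to 3 lower, and 0 to 1 zinc, manganese or magnesium genes higher and 0 to 2 lower. In each range, apart from the iron genes lower, which did not vary, the highest count came without parental library 2. Signs turned only for genes that were not called. With the length covariate the log2 fold change was 0.0195 for SLC39A10, -0.0760 for SLC39A3, 0.0802 for SLC41A1 and 0.0293 for TFRC. For SLC41A1 it was 0.000539 with a pseudocount of 0.1 and 0.0270 with quantile normalization. Over left-out libraries it ran from -0.250 to 0.0367 for SLC39A10, -0.0623 to 0.306 for SLC39A3, -0.0817 to 0.0539 for SLC39A9, -0.119 to 0.107 for SLC41A1, -0.245 to 0.116 for FTL, -0.310 to 0.00487 for HMOX1 and -0.235 to 0.0416 for TFRC.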
